A study of Mus musculus with 18 samples.

Results

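The numbered zinc finger protein genes of the mouse, Zfp1 to Zfp499, were read across the 6 groups of the array series. A gene was taken when a probe set named it alone and its symbol was Zfp with a number below 500 and at most a final letter. Zfp36, which encodes an mRNA-binding protein of another finger type, was left out. Where a gene had more than 1 probe set, the one with the highest mean signal was read. The rule gave 158 genes of the 19938 gene symbols measured, 153 of them with 1 probe set and 5 with 2. The set was put forward with the fall of Zfp39 with heat shock in view, so no p-value of its heat response is given below. It is still counted among the members that fell, as a description only. For all members, differences with heat shock in SCR cells are given as a description, without p-values of single members. Counts of members at a threshold in SCR cells are descriptive too.

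Most proteins of this set carry C2H2 zinc fingers, short folds held by a zinc ion that read DNA bases in a row of fingers. Many also have a KRAB box, which binds the corepressor TRIM28 (KAP1), and TRIM28 brings the histone H3K9 methyltransferase SETDB1 and other silencing factors to the bound DNA. In mammals KRAB zinc finger proteins are known for silencing retroelements, and their genes multiplied in clusters of neighbouring copies. The numbers only follow the order of naming, and some members are of other kinds: Zfp185 is a LIM domain protein of the actin cytoskeleton, Zfp207 (BuGZ) works at the mitotic spindle, and Zfp346 binds double-stranded RNA.

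The cells were immortalized mouse embryonic fibroblasts (MEF) of ICR background, and every group had received an adenovirus. The virus encoded scrambled RNA in SCR cells and a short hairpin RNA in the others, directed at HSF1, the master transcription factor of the heat shock response, in HSF1-KD cells, or at SSBP1, the single-stranded DNA-binding protein of mitochondria, in SSBP1-KD cells. Virus was applied for 2 h and the cells then grew for 70 h without it, after which they stayed at 37 °C (Cont) or were moved to 42 °C for 1 h (HS). Each of the 6 groups had 3 arrays, made from 200 ng of total RNA per sample. The labels do not say whether the 3 samples of a group came from separate cultures, so the spread behind the p-values is that between these samples and may be technical only.

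Across the 18 arrays, medians lay between 7.88 and 7.94 on the log2 scale and the lowest correlation within a group was 0.985. The mean absolute residual per array was 0.0700 to 0.152, and SSBP1-KD Cont, with 0.0918 to 0.152, held the highest. Ssbp1 differed between SSBP1-KD and SCR by -0.22 in Cont (adjusted p = 0.0555) and by -0.41 in HS (adjusted p = 0.00155) on the log2 scale, and by -0.07 and -0.03 on a less bright probe set. Hsf1 has no probe set of its own among those used, so the depth of that knockdown was not checked. Of 12 fibroblast markers, 11 or 12 lay above the array median in every group, while the mean signal of marker lists for epithelial, endothelial, blood and pluripotent cells was between 6.95 and 7.97 on all arrays and that of 3 muscle markers between 8.96 and 9.49.

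The promoters of 3 members are shown because these genes had large differences with heat shock in opposite directions. Zfp39 and Zfp119a are KRAB zinc finger genes that fell, and Zfp367 encodes a zinc finger factor and rose. The sequences are from RefSeq, build GRCm38.p6, all on the minus strand, and give the 250 bases before the annotated start, 5′ to 3′, at chr11:58904226-58904475 for Zfp39, chr17:55878954-55879203 for Zfp119a and chr13:64153200-64153449 for Zfp367. Capitals mark GC boxes, GGGCGG or its reverse complement CCGCCC. Zfp39 held 3, Zfp119a 0 and Zfp367 2. For Zfp367 the table lists 2 starts and the first is shown.
Zfp39: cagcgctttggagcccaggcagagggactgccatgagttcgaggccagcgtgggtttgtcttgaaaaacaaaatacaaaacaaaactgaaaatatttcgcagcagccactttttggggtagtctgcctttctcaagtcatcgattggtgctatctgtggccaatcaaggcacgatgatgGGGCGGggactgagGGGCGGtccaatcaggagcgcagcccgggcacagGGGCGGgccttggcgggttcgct
Zfp119a: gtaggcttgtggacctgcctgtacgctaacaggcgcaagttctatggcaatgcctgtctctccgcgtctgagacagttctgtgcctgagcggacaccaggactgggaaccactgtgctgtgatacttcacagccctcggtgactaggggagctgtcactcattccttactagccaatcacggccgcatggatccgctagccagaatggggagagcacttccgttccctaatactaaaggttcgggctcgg
Zfp367: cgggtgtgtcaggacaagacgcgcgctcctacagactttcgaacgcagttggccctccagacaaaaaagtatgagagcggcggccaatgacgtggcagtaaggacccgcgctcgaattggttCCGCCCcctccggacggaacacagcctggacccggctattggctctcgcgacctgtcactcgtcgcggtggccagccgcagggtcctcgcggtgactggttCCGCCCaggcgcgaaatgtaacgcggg

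In SCR cells most of the numbered Zfp genes were lower after heat shock. Of the 158, 123 had a log2 difference below 0, 49 had an adjusted p under 0.05 and were lower (31.0%), and 8 were higher (5.06%). Among all symbols 16.0% passed, 8.34% lower and 7.63% higher, and since the set was chosen with this comparison in view nothing is read from the gap. The median log2 difference was -0.12 for the set and -0.01 for all symbols. In 78 members all 3 HS arrays lay below all 3 Cont arrays, as they did in 17.9% of all symbols, and in 15 they lay above (16.5% of all symbols). The fall was small in most members, and 10 of the 158 (1 higher, 9 lower) changed more than 1.5-fold with an unadjusted p under 0.05. All symbols were not counted by that rule, so nothing about the set is read from it.

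The knockdown cells were on other arrays, and heat shock there was tested. Zfp39 is among the fallen members counted in both, as a description only, since the set was put forward with its fall in view. In HSF1-KD cells 44 of 158 members fell (27.8%, against 10.8% of all symbols) and 12 rose (7.59% against 10.6%), by limma with Benjamini-Hochberg adjustment over all probe sets and an adjusted p under 0.05. In SSBP1-KD cells 25 fell (15.8% against 2.82%) and 6 rose (3.80% against 4.08%). The medians were -0.10 and -0.07, against -0.01 for all symbols in both. In SSBP1-KD cells the number that passed in either direction, with 6.90% of all symbols as its background, went from 31 to 18, 20, 20 and 14 when SSBP1-KD Cont replicate 2 or 3 or SSBP1-KD HS replicate 2 or 3 was left out, to 7 with the compared arrays alone, and to 1 by the methods' t-test. In HSF1-KD cells, where the background was 21.4%, it went from 56 to 28 by that t-test. Both backgrounds are of the main fit. All symbols were not counted under the alternatives, so these drops may not be particular to the set. The arrays of SSBP1-KD Cont had the widest spread, as given above. Without its replicate 1, the array with the highest residual, 36 passed in SSBP1-KD and 66 in HSF1-KD cells, the highest counts with 1 array left out. The part of that spread in these counts was not tested further.

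**Figure D1:**
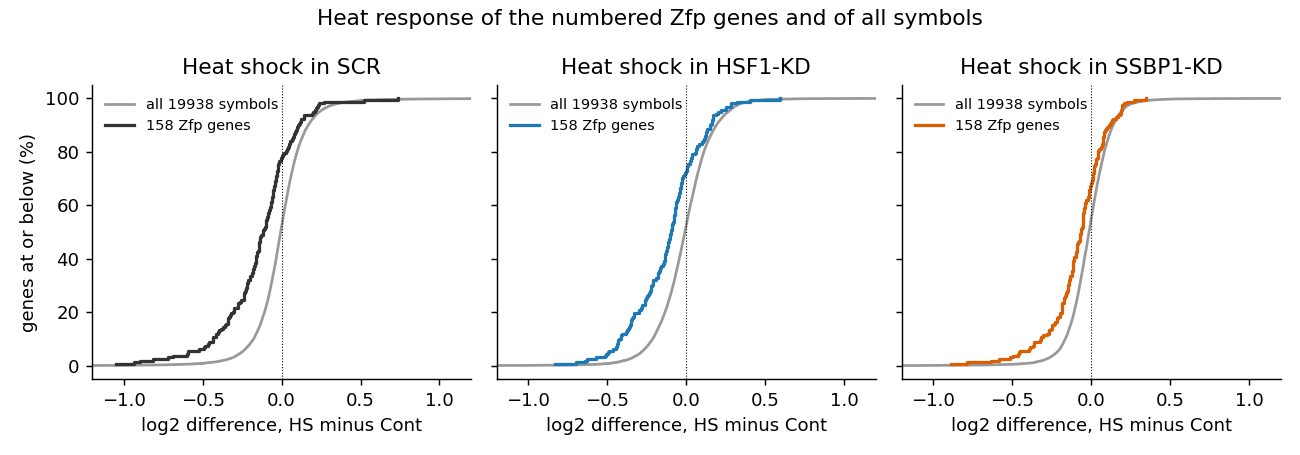
Cumulative share of genes (y axis, percent) at or below each log2 difference between HS and Cont (x axis), for the 158 numbered Zfp genes and for all 19938 symbols, in SCR, HSF1-KD and SSBP1-KD cells. The curve of the Zfp genes lies to the left of that of all symbols over its lower part in each panel, with medians of -0.12, -0.10 and -0.07 against -0.01.

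The same direction was kept by most members in the 3 kinds of cells, which share no array in these comparisons. In 96 of 158 members (60.8%) the log2 difference was below 0 in all 3, against 28.3% of all symbols. Counts that include SCR cells, here and below, are a description, and nothing is read from their gap to all symbols. Of the members that fell, HSF1-KD and SSBP1-KD cells shared 24, Zfp39 among them. The 24 are 54.5% of the 44 and 96.0% of the 25, while for all symbols the shared 421 were 19.5% and 74.9%. With SCR added, 23 were lower in all 3, which is 46.9%, 52.3% and 92.0% of the lists of SCR, HSF1-KD and SSBP1-KD, where the 380 of all symbols were 22.9%, 17.6% and 67.6%. These were Zfp11, Zfp27, Zfp39, Zfp40, Zfp52, Zfp54, Zfp57, Zfp62, Zfp101, Zfp111, Zfp119a, Zfp119b, Zfp157, Zfp169, Zfp184, Zfp202, Zfp248, Zfp273, Zfp286, Zfp300, Zfp386, Zfp414 and Zfp454. Higher in all 3 were Zfp142, Zfp148, Zfp266 and Zfp367, or 50.0%, 33.3% and 66.7% of the lists, against 34.6%, 24.9% and 64.7% for the 526 of all symbols. Of all symbols, 14 passed the threshold lower in one kind of cells and higher in another, and none of these was a member. A total of 86 of 158 members (54.4%) passed in none of the 3, against 73.2% of all symbols.

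Zfp39 had the largest fall of the set in SCR and HSF1-KD cells, and in SSBP1-KD cells Zfp119b, Zfp119a and Zfp455 had larger differences. Its log2 signal was 9.47, 9.42 and 9.41 in SCR Cont and 8.47, 8.29 and 8.40 in SCR HS, a difference of -1.05 or 2.07-fold. In HSF1-KD cells it read 9.48, 9.54 and 9.36 in Cont and 8.57, 8.71 and 8.60 in HS, which was a fall of 0.83. In SSBP1-KD cells it read 9.38, 9.51 and 9.47 in Cont and 9.03, 8.73 and 8.85 in HS, a log2 difference of -0.58. No HS array reached the lowest Cont array in any kind of cells. The Cont groups of the 3 kinds of cells overlapped, and the HS arrays of both knockdowns lay above those of SCR. The differences in heat response from SCR cells were 0.22 for HSF1-KD and 0.47 for SSBP1-KD, given without a test because Zfp39 was chosen on the SCR arrays.

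Zfp119a and Zfp119b, KRAB zinc finger genes that share a number, came next in SCR cells and had the largest falls in SSBP1-KD cells. Whether their probes tell the copies apart was not checked, so each may hold signal of the other. Zfp119a went from 7.93, 7.89 and 7.76 to 6.98, 6.91 and 7.00 in SCR cells, from 7.91, 7.62 and 7.82 to 7.01, 7.09 and 7.16 in HSF1-KD cells, and from 7.44, 7.95 and 8.15 to 7.19, 7.05 and 6.95 in SSBP1-KD cells. All HS arrays were below all Cont arrays of the same cells. The log2 difference was -0.89 in SCR, -0.70 in HSF1-KD (standard error 0.13, adjusted p = 0.00188) and -0.78 in SSBP1-KD cells (adjusted p = 0.00201, but up to 0.237 with the compared arrays alone or by the t-test). Zfp119b, a dimmer probe set, differed by -0.93, -0.47 (adjusted p = 0.011) and -0.89 (adjusted p = 0.000275) in the same order. Its fall in HSF1-KD cells did not pass without HSF1-KD HS replicate 2 or by the t-test (adjusted p up to 0.132), and in SSBP1-KD cells not by the t-test (0.106).

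Zfp54, Zfp386 and Zfp62 were other members with a large fall in all 3 kinds of cells. Zfp54 read 8.23, 8.24 and 8.19 in SCR Cont, 7.50, 7.47 and 7.62 in SCR HS, 8.52, 8.43 and 8.37 in HSF1-KD Cont, 8.05, 8.06 and 7.90 in HSF1-KD HS, 8.19, 8.31 and 8.29 in SSBP1-KD Cont, and 7.76, 7.67 and 7.81 in SSBP1-KD HS. Its HS arrays were below its Cont arrays in each, by 0.69 in the mean in SCR cells. The log2 difference was -0.44 in HSF1-KD (standard error 0.06, adjusted p = 0.000182) and -0.52 in SSBP1-KD cells (adjusted p = 0.000101). Zfp386 differed by -0.60 in SCR, by -0.57 in HSF1-KD (adjusted p = 7.49e-05) and by -0.50 in SSBP1-KD cells (adjusted p = 0.000503). Zfp62 differed by -0.59, -0.64 (adjusted p = 0.000872) and -0.39. Its last value, with an adjusted p of 0.0397, did not pass when any of 10 arrays was left out, SSBP1-KD Cont replicates 2 and 3 and SSBP1-KD HS replicates 2 and 3 among them. Zfp418 differed by -0.72 in SCR and by -0.63 in HSF1-KD cells (adjusted p = 0.000344), and its -0.30 in SSBP1-KD cells did not pass (adjusted p = 0.066). Zfp455 differed by -0.81 in SCR cells, and its -0.52 and -0.64 in HSF1-KD and SSBP1-KD cells did not pass (adjusted p = 0.0919 and 0.0706). Zfp414 held its fall in SSBP1-KD cells under every alternative, alone among the members, with -0.48 in SCR, -0.43 in HSF1-KD (adjusted p = 6.52e-05) and -0.31 in SSBP1-KD cells (adjusted p = 0.0017).

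Of members known for a certain role, Zfp57 maintains DNA methylation at imprinted genes. It read 11.82, 11.84 and 11.81 in SCR Cont and 11.48, 11.44 and 11.62 in SCR HS, a log2 difference of -0.31. In HSF1-KD cells it fell by 0.21 (adjusted p = 0.00567, but 0.0534 by the t-test) and in SSBP1-KD cells by 0.23 (adjusted p = 0.00824, up to 0.0981 with the compared arrays alone or by the t-test). Zfp110 (NRIF), a partner of the p75 neurotrophin receptor, differed by -0.33 in SCR cells, by -0.21 in HSF1-KD cells (adjusted p = 0.0107, not passed without HSF1-KD HS replicate 3, with the compared arrays alone or by the t-test) and by -0.11 in SSBP1-KD cells (adjusted p = 0.222). Zfp207 differed by -0.22 in SCR cells and did not pass in the knockdown cells (-0.04 and -0.07, adjusted p = 0.666 and 0.463). Zfp42 (Rex1), a marker of pluripotent cells, stayed between 5.84 and 6.44 on all 18 arrays and passed in no comparison.

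Rises with heat shock were fewer. Zfp367 read 9.93, 9.97 and 9.97 in SCR Cont and 10.63, 10.76 and 10.69 in SCR HS, the largest rise of the set at 0.74 or 1.67-fold. It went from 10.18, 10.03 and 10.14 to 10.75, 10.73 and 10.65 in HSF1-KD cells (log2 difference 0.60, standard error 0.05, adjusted p = 3.3e-06) and from 10.26, 10.32 and 10.23 to 10.64, 10.66 and 10.55 in SSBP1-KD cells (0.35, adjusted p = 0.000692). The HS groups of the 3 kinds of cells overlapped, whereas the Cont arrays of both knockdowns lay above those of SCR. The rise in SSBP1-KD cells did not pass with the compared arrays alone or by the t-test (adjusted p up to 0.0846).

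Zfp148 (ZBP-89), which binds GC-rich promoters, rose by less but on clearly separate arrays. It went from 11.24, 11.26 and 11.27 to 11.46, 11.52 and 11.46 in SCR cells (log2 difference 0.22), from 11.02, 10.91 and 10.95 to 11.24, 11.22 and 11.26 in HSF1-KD cells (0.28, adjusted p = 0.000381), and from 11.16, 11.29 and 11.31 to 11.42, 11.44 and 11.44 in SSBP1-KD cells (0.18, adjusted p = 0.0164). The last did not pass without SSBP1-KD Cont replicate 1 or SSBP1-KD HS replicate 2 or 3. Its relative Zfp281 gave -0.00, -0.13 and -0.11, none of which passed in the knockdown cells (adjusted p = 0.0705 and 0.219). Zfp280b read 9.92, 9.98 and 9.83 in SCR Cont and 10.39, 10.51 and 10.39 in SCR HS, a difference of 0.52, while its differences of 0.12 in HSF1-KD and 0.16 in SSBP1-KD cells did not pass (adjusted p = 0.172 and 0.107). Zfp410, known as an activator of Chd4, differed by 0.21 in SCR cells and by 0.13 and 0.09 in the knockdown cells (adjusted p = 0.062 and 0.277).

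**Figure D2:**
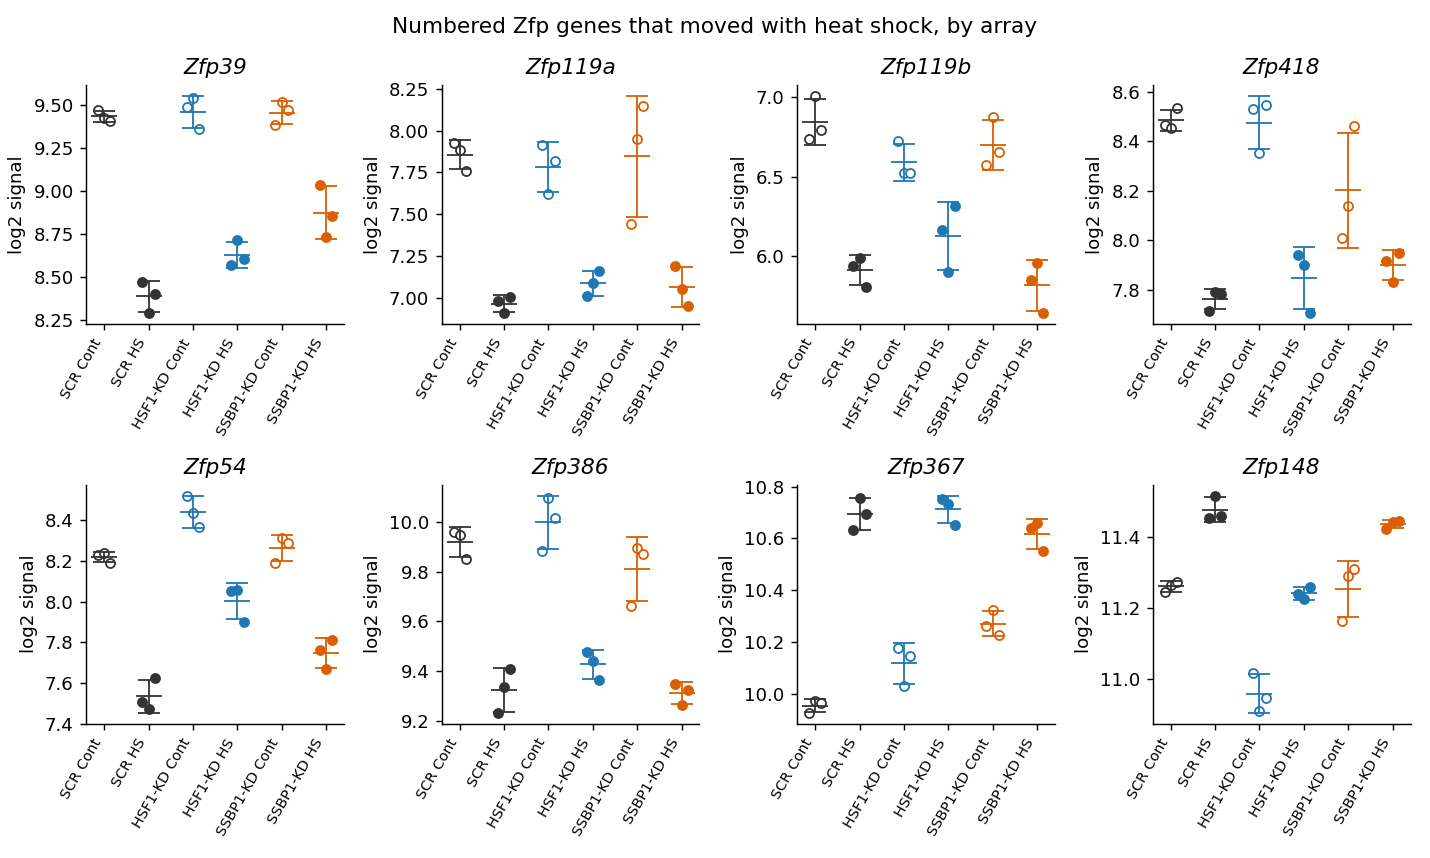
Log2 signal (y axis) of 8 numbered Zfp genes in the 6 groups (x axis), with 1 point per array, open for Cont and filled for HS, and bars for the mean and SD of 3 arrays. Zfp39 drops from 9.41 to 9.47 in SCR Cont to between 8.29 and 8.47 in SCR HS, while Zfp367 goes from 9.93 to 9.97 up to between 10.63 and 10.76.

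Tests of the difference in heat response between kinds of cells passed for few members. Against SCR cells, 1 of 158 passed for HSF1-KD, with a lower response (0.336% of all symbols were lower and 0.346% passed in all). For SSBP1-KD 2 passed, 1 with a higher and 1 with a lower value (0.181% and 0.311% of all symbols, 0.492% in all). With so few genes nothing is read from the shares. Zfp84 read 9.13, 9.16 and 9.10 in SCR Cont and 9.09, 9.06 and 9.10 in SCR HS, but 9.37, 9.41 and 9.28 in HSF1-KD Cont and 8.91, 8.97 and 8.94 in HSF1-KD HS. Its heat response in HSF1-KD cells was lower by 0.37 (standard error 0.07, adjusted p = 0.0279). In SSBP1-KD cells it went from 9.26 to 9.35 in Cont to between 8.91 and 9.07 in HS, and the difference from SCR of -0.26 did not pass (adjusted p = 0.13). Zfp169 fell by less in SSBP1-KD than in SCR cells (difference 0.39, adjusted p = 0.0454), and Zfp367 rose by less (-0.39, adjusted p = 0.0283). Zfp280b came near the threshold for both knockdowns, with -0.40 for HSF1-KD (adjusted p = 0.0556) and -0.36 for SSBP1-KD (adjusted p = 0.077). These counts rest on single arrays, since leaving 1 out gave 0 to 2 for HSF1-KD and 0 to 3 for SSBP1-KD. The first count was 0 without any SCR array other than SCR Cont replicate 2, without HSF1-KD Cont replicate 1 or 2, without any HSF1-KD HS array, and without SSBP1-KD HS replicate 3. The second was 0 without any SCR array other than SCR HS replicate 1, without SSBP1-KD Cont replicate 2 and without SSBP1-KD HS replicate 1 or 3, and 1 without SCR HS replicate 1, any HSF1-KD Cont array, HSF1-KD HS replicate 1 or SSBP1-KD Cont replicate 1. The median difference over the set was 0.03 for HSF1-KD and 0.06 for SSBP1-KD, and the latter was 0.02 without SSBP1-KD Cont replicate 1.

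**Figure D3:**
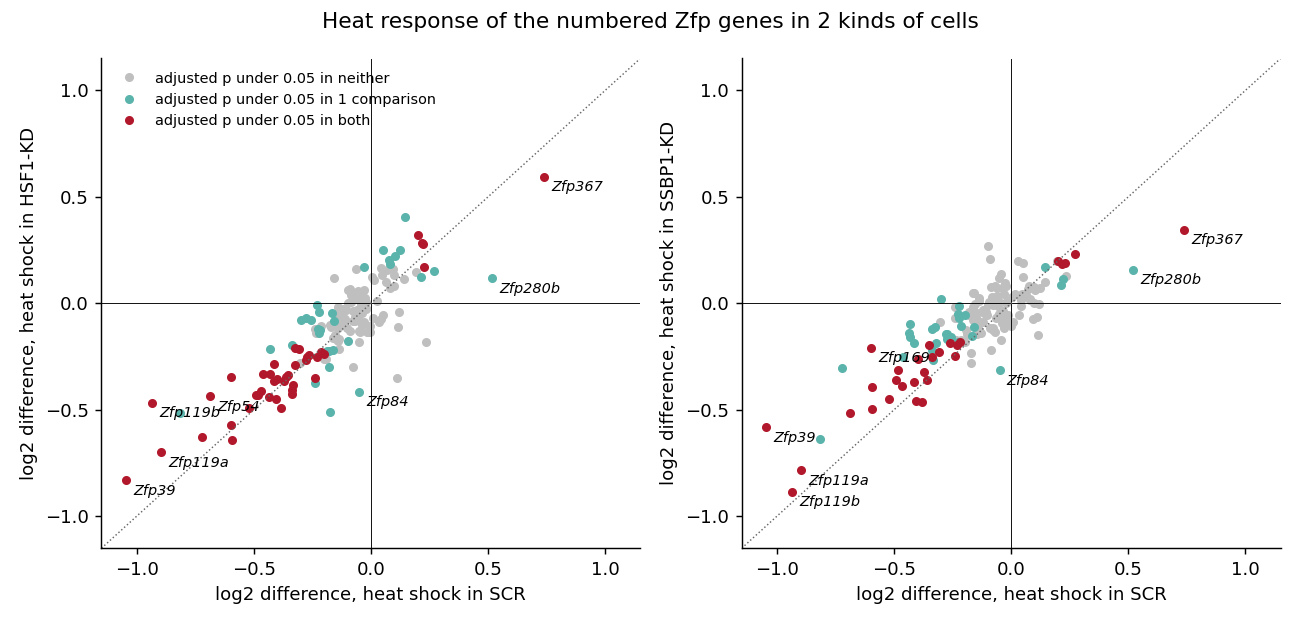
Log2 difference with heat shock of the 158 numbered Zfp genes in SCR cells (x axis) against HSF1-KD cells (y axis, left) and SSBP1-KD cells (y axis, right), 1 point per gene, coloured by the number of comparisons with an adjusted p under 0.05. The dotted line marks equal differences. Zfp39 lies at -1.05 in SCR and at -0.83 and -0.58 in the knockdowns, and Zfp84 lies off the line in the left panel with -0.05 and -0.41.

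Zfp genes with higher numbers and zinc finger genes of other names were counted in the same way. Of the 182 Zfp genes numbered 500 or more, 45 fell and 13 rose in HSF1-KD cells, and 26 fell and 5 rose in SSBP1-KD cells, with 49 lower and 13 higher in SCR cells. Their shares that were lower, 26.9%, 24.7% and 14.3% for SCR, HSF1-KD and SSBP1-KD, lay close to the 31.0%, 27.8% and 15.8% of the set, and the difference was not tested. Of all symbols 8.34%, 10.8% and 2.82% were lower in the same order. The shares that were higher were 7.14%, 7.14% and 2.75%, against 7.63%, 10.6% and 4.08% of all symbols. At the number limit itself, Zfp488 inside the rule differed by 0.09, 0.16 and -0.07 and Zfp503 outside it by 0.52, 0.22 and 0.18. Of 63 Zbtb, Zscan and Zkscan genes, 7 fell (11.1%, against 10.8% of all symbols) and 12 rose (19.0% against 10.6%) in HSF1-KD cells. In SSBP1-KD cells 3 fell (4.76% against 2.82%) and 4 rose (6.35% against 4.08%). The medians in HSF1-KD and SSBP1-KD cells were 0.00 and -0.01. In SCR cells 8 were lower (12.7% against 8.34%) and 9 higher (14.3% against 7.63%).

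The partners through which KRAB proteins silence DNA were read from a list of 28 measured genes. In HSF1-KD cells 4 fell with heat shock (14.3%, against 10.8% of all symbols) and 5 rose (17.9% against 10.6%). In SSBP1-KD cells 1 rose (3.57% against 4.08%), Suv39h2, an H3K9 methyltransferase. With so few genes nothing is read from these shares. In SCR cells 3 rose (10.7% against 7.63%) and 2 fell (7.14% against 8.34%). There Suv39h2 rose by 0.37 (adjusted p = 0.000368) and Chd4, a nucleosome remodeller, fell by 0.21 (adjusted p = 0.00336). Trim28 and Setdb1 gave 0.04 (adjusted p = 0.611) and -0.02 (adjusted p = 0.853). Neither passed with heat shock in the knockdown cells, with -0.02 and 0.09 in HSF1-KD (adjusted p = 0.738 and 0.254) and 0.02 and 0.03 in SSBP1-KD (adjusted p = 0.844 and 0.784). Against SCR in HS, Trim28 was lower in HSF1-KD (-0.17, adjusted p = 0.00883) and Setdb1 higher in SSBP1-KD (0.14, adjusted p = 0.0453). Of the list, 6 were lower (21.4% against 10.7%) and 3 higher (10.7% against 13.1%) in HSF1-KD HS. In SSBP1-KD HS 6 were lower (21.4% against 14.4%) and 6 higher (21.4% against 14.3%).

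In the order of RefSeq genes (assembly GRCm38.p6), 157 members were placed and 57 lay next to another member, in 21 runs. Neighbours varied in size of response. In the run Zfp54, Zfp51, Zfp53 and Zfp52, the log2 differences with heat shock were -0.44, -0.20, -0.06 and -0.35 in HSF1-KD and -0.52, -0.22, -0.09 and -0.36 in SSBP1-KD cells. In the run Zfp329, Zfp110 and Zfp128 they were -0.29, -0.21 and -0.33 in HSF1-KD cells. The largest run held 10 genes, Zfp180, Zfp112, Zfp235, Zfp114, Zfp111, Zfp109, Zfp108, Zfp93, Zfp61 and Zfp94, and ranged there from 0.08 for Zfp180 to -0.35 for Zfp111. Zfp27 at -0.49 stood beside Zfp420 at 0.01.

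Promoter windows of 300 bases, 250 before and 50 after each start, were found in the RefSeq table for 127 members. A GC box, GGGCGG on either strand, occurred in 59 of them (46.5%) and in 38.2% of all 27025 genes of the table. The table also holds genes that the array did not measure, so the 38.2% is not a background for the members. Of members that fell with heat shock in HSF1-KD cells 10 of 38 held one (26.3%), of those that rose 9 of 11 (81.8%), and of the others 40 of 78 (51.3%). For all symbols measured on the array the shares were 66.0% of those that fell, 76.0% of those that rose and 48.0% of the others. Each of these is above the 46.5% of the members. In SSBP1-KD cells 5 of the 22 fallen members held a GC box (22.7%), against 56.6% of all fallen symbols, and in SCR cells 11 of 43 (25.6%) against 64.6%. Zfp39 is one of the fallen members with GC boxes and Zfp119a one without, as printed above. A pair of inverted heat shock element units, GAANNTTC or TTCNNGAA, each its own reverse complement, occurred in 16.5% of members and 17.0% of all genes of the table. Among symbols measured on the array it occurred in 13.4% of those that fell in HSF1-KD cells, 13.3% of those that rose and 15.9% of the others. Of the members that fell in HSF1-KD cells 6 of 38 held it (15.8%). These are matches of letters, which neither show binding nor its absence.

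Next, each knockdown was compared with SCR cells at 37 °C. In HSF1-KD cells 14 of 158 members were higher (8.86%, against 10.9% of all symbols) and 16 lower (10.1% against 10.1%), which is near the background. The 30 in all (background 21.0%) became 19 without SCR Cont replicate 3, 16 with the compared arrays alone and 10 by the t-test. In SSBP1-KD cells 17 were higher (10.8% against 14.6%) and 36 lower (22.8% against 16.5%), and the 53 in all (background 31.1%) became 26 with the compared arrays alone and 27 by the t-test. The median of the set there, -0.09, was -0.04 without SSBP1-KD Cont replicate 1. After heat shock, 19 members were higher (13.1% of all symbols) and 12 lower (7.59% against 10.7%) in HSF1-KD, and 16 higher (10.1% against 14.3%) and 23 lower (14.6% against 14.4%) in SSBP1-KD. The 31 of HSF1-KD (background 23.7%) became 18 without SCR HS replicate 3 and 16 by the t-test, and were 13 higher and 14 lower when array medians were set to 1 value. The 39 of SSBP1-KD (background 28.7%) became 23 by the t-test. All backgrounds here are of the main fit, and all symbols were not counted under the alternatives. Both counts after heat shock include Zfp39.

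Markers of fibroblasts moved with the knockdowns. Of the 12 markers, 7 were lower in HSF1-KD cells at 37 °C (58.3%, against 10.1% of all symbols) and 7 in SSBP1-KD cells (58.3% against 16.5%). After heat shock 8 (66.7% against 10.7%) and 7 (58.3% against 14.4%) were lower. In each condition 1 was higher in HSF1-KD cells (8.33%, against 10.9% in Cont and 13.1% in HS). In SSBP1-KD cells 2 were higher in each (16.7%, against 14.6% and 14.3%). S100a4 was higher after heat shock by 0.48 and 0.61 (adjusted p = 0.00077 and 8.26e-05). Their mean log2 signal per array was 10.87 to 10.94 in SCR, 10.64 to 10.75 in HSF1-KD and 10.56 to 10.66 in SSBP1-KD cells. A list of 4 blood cell markers had a mean signal below the array medians and read 7.20 to 7.47 in SCR, 7.42 to 7.60 in HSF1-KD and 7.45 to 7.61 in SSBP1-KD cells, and 4 endothelial markers read 7.11 to 7.22, 7.31 to 7.38 and 7.23 to 7.43. Among the blood markers Cd68 stood apart, with group means of 9.35 to 10.16, and the others had 6.15 to 7.12. Cd68 was higher than in SCR by 0.35 and 0.39 in HSF1-KD (adjusted p = 0.0138 and 0.00623, Cont and HS) and by 0.43 and 0.45 in SSBP1-KD (adjusted p = 0.00239 and 0.00156). A list of 3 muscle markers read 8.96 to 9.18 in SCR and HSF1-KD and 9.40 to 9.49 in SSBP1-KD cells. Among them Acta2, the smooth muscle actin gene, differed from SCR by -0.51 and -0.42 in HSF1-KD (adjusted p = 3.49e-05 and 0.000121, Cont and HS) and by 0.71 and 0.83 in SSBP1-KD (adjusted p = 9.7e-07 and 3.41e-07). The part of these in the differences of the Zfp genes was not tested. In RNA of whole cultures, fewer cells of a type and less RNA per cell cannot be told apart.

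Members that differed with a knockdown at 37 °C often did so after heat shock, on other arrays, and so did all symbols. Most shares of the members were near or below those of all symbols, so nothing particular to the set is read from them. For HSF1-KD, 9 members were lower in both, which is 56.2% of the 16 and 75.0% of the 12, and 10 were higher in both, 71.4% of the 14 and 52.6% of the 19. For SSBP1-KD, 20 were lower in both (55.6% of the 36 and 87.0% of the 23) and 11 higher in both (64.7% of the 17 and 68.8% of the 16). Over all symbols the shares were 74.2% and 70.2% (lower) and 71.5% and 59.8% (higher) for HSF1-KD, and 71.2% and 81.7% (lower) and 66.6% and 68.1% (higher) for SSBP1-KD.

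Zfp37, a KRAB zinc finger gene, had the largest rise in SSBP1-KD cells. It read 8.58, 8.69 and 8.50 in SCR Cont and 9.20, 9.43 and 9.33 in SSBP1-KD Cont, which was 0.73 higher (standard error 0.09, adjusted p = 3.53e-05). After heat shock it read 8.43, 8.22 and 8.22 in SCR and 9.51, 9.30 and 9.22 in SSBP1-KD, a difference of 1.05 or 2.07-fold (adjusted p = 1.62e-06). No SSBP1-KD array overlapped with SCR. In HSF1-KD it lay at 8.80, 8.74 and 8.59 in Cont and 8.71, 8.63 and 8.55 in HS, and only the second differed from SCR (0.34, adjusted p = 0.0149), which did not pass without SCR HS replicate 2 or 3 or HSF1-KD HS replicate 1.

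Zfp185, the LIM domain gene, stood on opposite sides of SCR in the knockdowns. The SCR arrays read 8.10, 8.21 and 8.36 in Cont and 8.10, 8.24 and 8.26 in HS. In HSF1-KD they read 8.72, 8.68 and 8.79 in Cont and 8.81, 8.73 and 8.59 in HS, and in SSBP1-KD 7.48, 7.40 and 7.46 and then 7.55, 7.45 and 7.58. The 3 kinds of cells did not overlap. HSF1-KD was higher than SCR by 0.51 in both conditions (standard error 0.07, adjusted p = 0.000207 and 0.000159), and the SSBP1-KD difference was -0.77 in Cont and -0.67 in HS (adjusted p = 2.97e-06 and 1.15e-05). All of these held under every alternative. Both knockdowns were set against the same SCR arrays.

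Other members were lower in both knockdowns. Zfp354c, a KRAB gene expressed in bone-forming cells, read 9.93, 9.98 and 10.04 in SCR Cont, 9.59, 9.75 and 9.52 in HSF1-KD Cont and 9.25, 9.30 and 9.41 in SSBP1-KD Cont. The log2 differences were -0.36 (adjusted p = 0.00657, but 0.073 by the t-test) and -0.66 (adjusted p = 3.78e-05), and after heat shock -0.49 (adjusted p = 0.000648) and -0.75 (adjusted p = 1.33e-05). Zfp362 read 9.88, 9.87 and 10.09 in SCR Cont, 9.24, 9.12 and 9.24 in HSF1-KD Cont and 9.54, 9.56 and 9.51 in SSBP1-KD Cont. Here the HSF1-KD difference was the larger, at -0.74 (adjusted p = 1.41e-06) against -0.41 (adjusted p = 0.000148), and after heat shock at -0.63 against -0.45. Zfp395 differed by -0.42 in HSF1-KD Cont and by -0.58 in SSBP1-KD Cont (adjusted p = 0.000642 and 2.98e-05), and Zfp358 by -0.33 and -0.67 (adjusted p = 0.00297 and 5.59e-06). For both genes the HSF1-KD value did not pass by the t-test (0.0814 and 0.0753). Zfp467, a factor that promotes adipocyte formation, was lower in SSBP1-KD by 0.51 in Cont and 0.53 in HS (adjusted p = 0.000735 and 0.000527; by the t-test 0.0559 and 0.0557).

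Some members differed in HSF1-KD cells. Zfp365, which takes part in the DNA damage response, read 8.17, 8.19 and 8.16 in SCR Cont and 8.53, 8.50 and 8.66 in HSF1-KD Cont, then 8.34, 8.33 and 8.29 in SCR HS and 8.96, 9.01 and 8.92 in HSF1-KD HS. HSF1-KD was higher by 0.38 in Cont (standard error 0.05, adjusted p = 8e-05) and by 0.64 in HS (adjusted p = 4.45e-07), with no overlap. In SSBP1-KD the differences were 0.15 and 0.18 (adjusted p = 0.0327 and 0.0153), which did not pass when SCR Cont replicate 1, 2 or 3 (Cont) or SCR HS replicate 3 (HS) was left out, among others. Zfp398 was lower in HSF1-KD by 0.37 in Cont and 0.28 in HS (adjusted p = 8.5e-05 and 0.000672, the latter 0.0618 by the t-test), and gave -0.03 and 0.01 in SSBP1-KD (adjusted p = 0.735 and 0.931). Zfp148, described above for its rise with heat shock, was lower in HSF1-KD by 0.30 in Cont and 0.24 in HS (adjusted p = 0.000219 and 0.00124), while SSBP1-KD gave -0.01 and -0.04 (adjusted p = 0.925 and 0.603). Its HSF1-KD HS arrays, at 11.22 to 11.26, lay at the level of SCR Cont, 11.24 to 11.27.

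**Figure D4:**
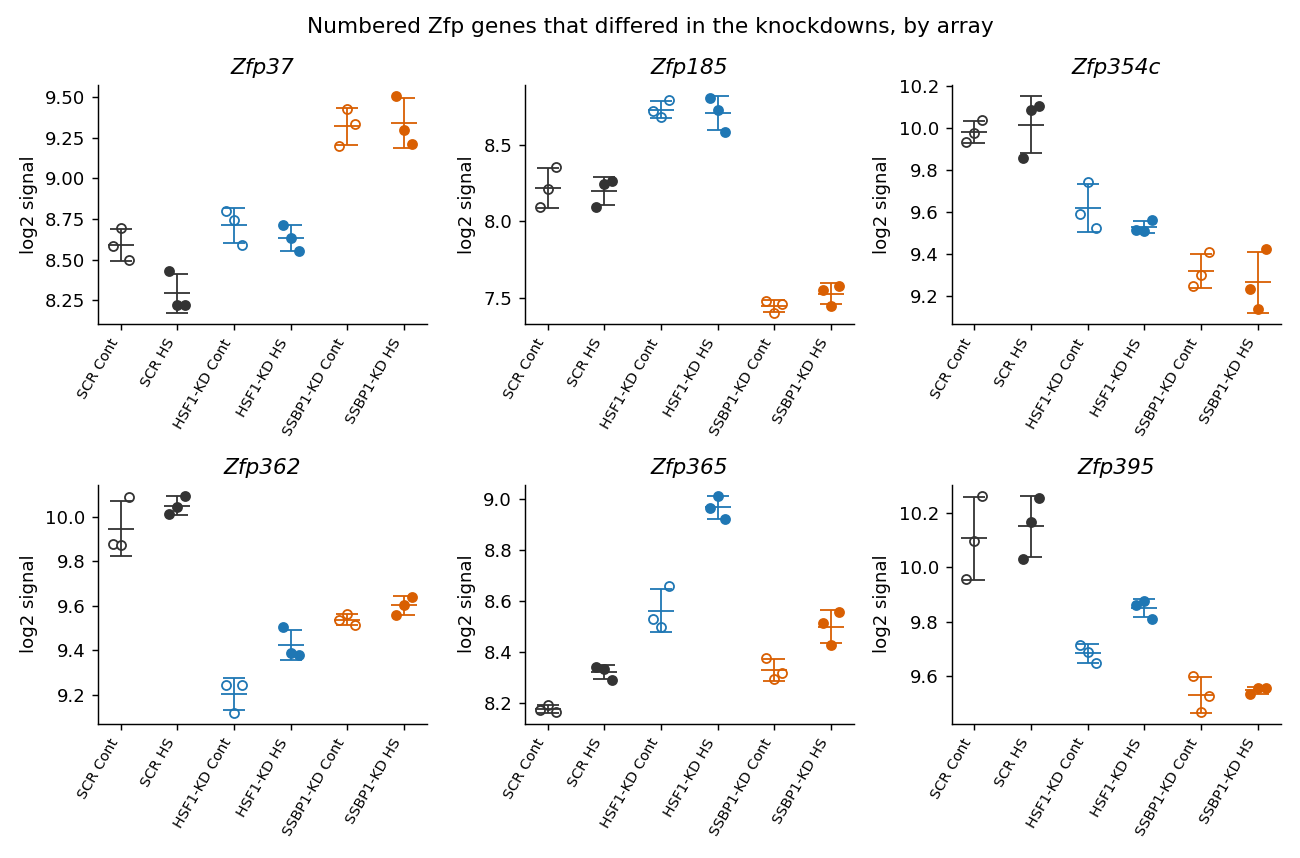
Log2 signal (y axis) of 6 numbered Zfp genes in the 6 groups (x axis), with 1 point per array, open for Cont and filled for HS, and bars for the mean and SD of 3 arrays. Zfp185 lies at 8.59 to 8.81 in HSF1-KD, 8.10 to 8.36 in SCR and 7.40 to 7.58 in SSBP1-KD, whereas Zfp37 lies at 9.20 or above in SSBP1-KD alone.

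Smaller differences were seen in members with known roles. Zfp57 was lower than in SCR by 0.24 in HSF1-KD Cont and by 0.32 in SSBP1-KD Cont (adjusted p = 0.00267 and 0.000181), and by 0.24 in SSBP1-KD HS (adjusted p = 0.00172, but 0.0722 by the t-test). Zfp335, needed in neural progenitors, was higher in HSF1-KD by 0.33 in Cont and 0.29 in HS (adjusted p = 0.00176 and 0.00388, the former up to 0.129 with the compared arrays alone or by the t-test) and in SSBP1-KD HS by 0.33 (adjusted p = 0.00116). Its 0.19 in SSBP1-KD Cont (adjusted p = 0.0415) did not pass in most alternatives. Zfp346 and Zfp462, a regulator of pluripotent cells, were higher in SSBP1-KD HS by 0.41 and 0.33 (adjusted p = 0.00027 and 0.000338). Zfp90 gave -0.42 in Cont and -0.37 in HS in SSBP1-KD (adjusted p = 1.02e-05 and 2.87e-05) against -0.07 and 0.01 in HSF1-KD (adjusted p = 0.35 and 0.937). Zfp423, a factor of adipocyte precursors, lay between 7.57 and 7.83 on all arrays and passed in no comparison. Of the 158 members 52 (32.9%) passed in no comparison at all, against 46.2% of all symbols. That count includes heat shock in SCR cells, so nothing is read from the gap.

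**Figure D5:**
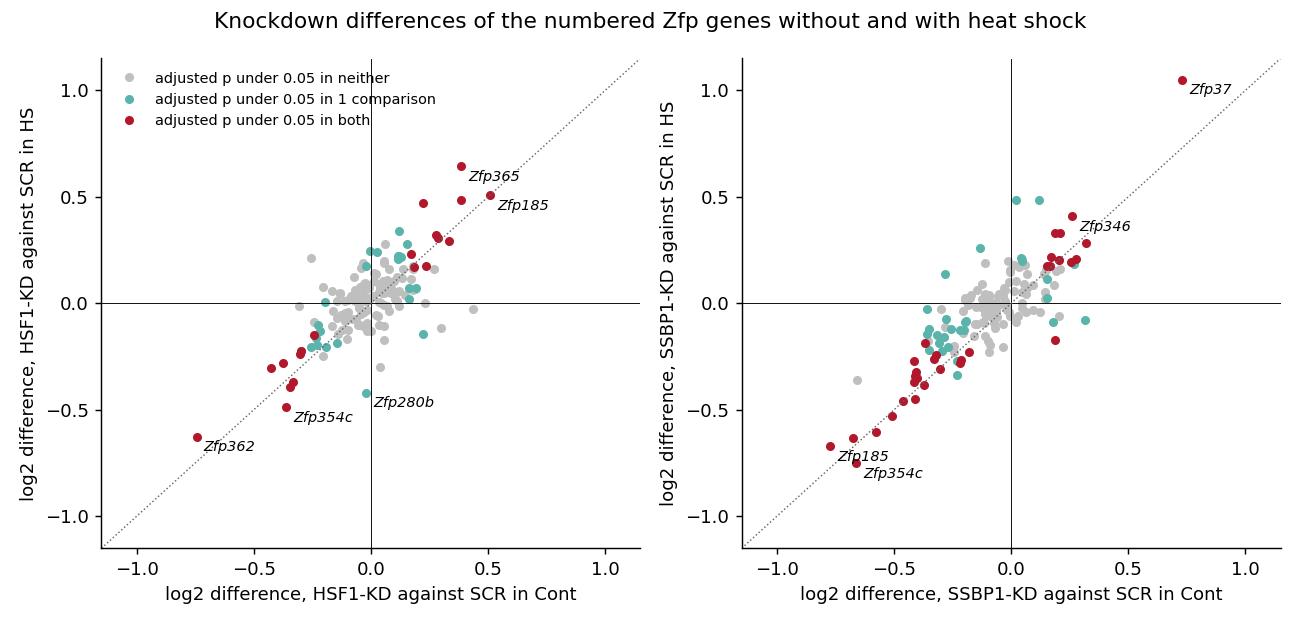
Log2 difference from SCR of the 158 numbered Zfp genes in Cont (x axis) and in HS (y axis), for HSF1-KD (left) and SSBP1-KD (right), 1 point per gene, coloured by the number of comparisons with an adjusted p under 0.05. The dotted line marks equal differences. Zfp362 lies at -0.74 and -0.63 in HSF1-KD and Zfp37 at 0.73 and 1.05 in SSBP1-KD.

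Of the 5 members with 2 probe sets, Zfp319 and Zfp60 gave values that were far apart. Zfp319 differed with heat shock in SCR cells by 0.04 on the brighter probe set and by 0.46 on the other. In HSF1-KD cells it gave -0.07 (adjusted p = 0.386) and 0.35 (adjusted p = 0.00152) in that order, so it is not counted as risen there. Zfp407 gave -0.12 (adjusted p = 0.0968) and -0.15 (adjusted p = 0.0314) in HSF1-KD cells. Zfp60 differed from SCR by 0.05 and -0.33 in HSF1-KD Cont and by -0.41 and -0.81 in SSBP1-KD Cont, on the brighter and the other probe set. Dim and bright members were both among those that were lower with heat shock in SCR cells, 35 of 112 whose signal was above the median probe set and 14 of 46 below it.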

How the data were processed

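RNA of 18 samples had been measured on Affymetrix Mouse Gene ST arrays, 3 per group. According to the submitters' processing notes, the authors used RMA and Partek 6.5, and the deposited table holds log2 signals for each probe set, already background-corrected and normalized. Neither step was repeated. RMA pulls the arrays to a common distribution, so each difference is relative to the other probe sets. Of 35557 probe sets, 21789 carried 1 symbol, 1621 several and 12147 none, by a platform annotation that can be old; 21698 were matched to RefSeq names (assembly GRCm38.p6), all 158 Zfp genes among them. Arrays have no read depth, so their number and the spread between them limit the precision.

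The model was fitted with limma 3.58.1 in R 4.3.3 (lmFit and eBayes, 1 mean per group, 12 residual and 2.36 prior degrees of freedom), with Benjamini-Hochberg adjustment over all probe sets and a threshold of 0.05. The comparisons were heat shock in each kind of cells, both knockdowns against SCR without and with heat shock, and how far their heat response differed from that of SCR. The code was tested on simulated data. Members, lists and tests were chosen with earlier results of these data known. Named with statistics were the 12 members with the greatest change each way under SCR heat shock, the 8 largest in each direction of the other comparisons, and members with a known role. Alternatives were array medians set to 1 value, quantile normalization, only probe sets above the median signal, the compared arrays alone, a trended and robust prior, a replicate block, the methods' t-test (Student's, adjusted in the same way), the next brightest probe set, and each array left out. For SCR heat shock, a fold change over 1.5 in either direction with an unadjusted p under 0.05 was also counted; the study's rule of that size is for induced genes. Python 3.11.15 with matplotlib 3.10.9 drew the figures. Protein sequences were not used here.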

Additional observations from a re-analysis of the deposited data

Results flagged for a closer look

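The heat response of 3 members differed from that in SCR cells by a test of the difference itself (limma, adjusted over all probe sets). For Zfp84 the difference HSF1-KD minus SCR was -0.37 (adjusted p = 0.0279), and it did not pass in 14 of the alternatives. Heat shock gave -0.41 in HSF1-KD and -0.05 in SCR cells. The HSF1-KD mean was above that of SCR in Cont (9.35 against 9.13) and below it in HS (8.94 against 9.08). For Zfp169 the difference SSBP1-KD minus SCR was 0.39 (adjusted p = 0.0454), a smaller fall, and it did not pass in 18. For Zfp367 the difference SSBP1-KD minus SCR was -0.39 (adjusted p = 0.0283), a smaller rise, and it did not pass in 12.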

How the results depend on the processing

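No member that passed changed sign in any alternative. Of the members that passed with heat shock, 32 of 57 in SCR, 22 of 56 in HSF1-KD and 1 of 31 in SSBP1-KD cells passed in all alternatives. Of those that differed from SCR, 8 of 30 (HSF1-KD) and 17 of 53 (SSBP1-KD) did so in Cont, and 11 of 31 and 19 of 39 in HS. For heat shock in SCR, 10 members (1 higher, 9 lower) passed at over 1.5-fold with an unadjusted p under 0.05, a rule by which all symbols were not counted. By the methods' t-test 28 passed with heat shock in HSF1-KD cells and 1 in SSBP1-KD cells, 10 and 27 for HSF1-KD and SSBP1-KD in Cont, 16 and 23 in HS, and 0 for the difference in heat response of SSBP1-KD. With the compared arrays alone 7 passed with heat shock in SSBP1-KD, 16 and 26 for HSF1-KD and SSBP1-KD in Cont, and 0 for the difference in heat response of SSBP1-KD. For the differences in heat response, HSF1-KD gave 0 with array medians set to 1 value and 2 both among probe sets above the median signal and with a trended and robust prior, and SSBP1-KD gave 1 with equal array medians, 5 among probe sets above the median signal and 3 with the trended prior. Leaving out 1 array gave 45 to 65 for heat shock in SCR, 47 to 66 in HSF1-KD cells and 14 to 36 in SSBP1-KD cells, 19 to 32 and 37 to 56 for HSF1-KD and SSBP1-KD in Cont, 18 to 40 and 31 to 49 in HS, and 0 to 2 and 0 to 3 for the differences in heat response of HSF1-KD and SSBP1-KD. The cause of these shifts was not tested, apart from fewer arrays or fewer probe sets where the alternative removes them. All symbols were not counted under the alternatives, so whether their numbers moved alike is not known.

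Replicate numbers did not pair the arrays: residuals of arrays that share a number correlated at -0.276 to 0.171, and above 0.1 in 6 of 45 pairs. With the replicate block 56 members passed with heat shock in SCR, 55 in HSF1-KD cells and 24 in SSBP1-KD cells, and 0 in place of 2 for the difference in heat response of SSBP1-KD.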
